A study of Homo sapiens with 4 samples.

Results

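The large subunit of the cytosolic ribosome was followed through the mRNAs of 46 genes, RPL3 to RPL41 and RPLP0 to RPLP2, which were listed by gene name. They are 46 of the 62700 genes in the deposited count table, and all 46 passed the filter on low counts. RNA came from HEK293T, an established embryonic kidney line, of the genotype CMV-V5-MITO-PRADA. This is a V5-tagged PRADA construct placed in the mitochondrial matrix and driven by a cytomegalovirus promoter, and the labels describe the cells as derived from a stable clone. All cells, controls included, were kept for 5 h in 100 µM s4U, a uridine analogue, and for a further 30 min in s4U plus 0.5 mM alkyne phenol. To start the labelling reaction, cells of the labelled group (2 libraries) were then given 10 mM D-amino acid for 30 min. The unlabelled group of 2 libraries was treated in the same way without D-amino acid. The design text speaks of enriched material, and the protocols name depletion of ribosomal RNA before library preparation. The labels do not say whether the unlabelled libraries went through the same enrichment, so a ratio of labelled to unlabelled cannot be read as a captured share of an mRNA. Titles of labelled libraries add the letters DF, which the labels do not spell out. Each title has the words bio rep, and nothing in the labels tells whether the cultures were separate, so p-values measure only the spread between these libraries.

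A large subunit holds 1 copy of most of its proteins, wrapped around the ribosomal RNA that catalyses peptide bond formation, and a stalk of acidic P proteins that recruits translation factors. In human cells most mRNAs of these proteins begin with a C followed by a run of pyrimidines, the 5′ terminal oligopyrimidine (TOP) tract, through which growth signals control their translation as a group. They are among the most abundant and shortest mRNAs of a growing cell and are translated on cytosolic ribosomes, outside the mitochondrial matrix.

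The RefSeq table of promoters on GRCh38.p14 listed a transcription start for 39 of the 46 genes. A tract was defined as a C followed by 4 or more further letters, each C or T, beginning within 5 bases on either side of a listed start, on the transcribed strand only. Such a tract stood at 33 of the 39 genes (84.6%), against 23.6% of all 27305 symbols in that table. Counted by start, it stood at 36 of 51 starts (70.6%) of these genes and at 19.7% of all 35116 starts. Windows are shown for the 5 genes with the lowest labelled to unlabelled ratios and for 2 genes with ratios above 1. They are also shown for RPL4 and RPL17, 2 of the 6 genes without a match. Both of these also had ratios above 1, while 4 of the 6 had ratios below 1. The windows display the shared feature and the limits of its definition. Each runs 5′ to 3′ from 15 bases before the start to 15 bases after it, with the tract in capitals.
RPL39, chrX:119791616-119791645, minus strand: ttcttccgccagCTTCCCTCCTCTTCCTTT
RPL38, chr17:74203663-74203692, plus strand: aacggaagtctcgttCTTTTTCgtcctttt
RPL37A, chr2:216498829-216498858, plus strand: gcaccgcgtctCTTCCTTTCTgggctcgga
RPLP1, chr15:69452803-69452832, plus strand: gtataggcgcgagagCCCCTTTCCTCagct
RPLP2, chr11:809952-809981, plus strand: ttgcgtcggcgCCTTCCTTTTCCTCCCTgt
RPL22, chr1:6199581-6199610, minus strand: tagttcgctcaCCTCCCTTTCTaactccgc
RPL36AL, chr14:49620612-49620641, minus strand: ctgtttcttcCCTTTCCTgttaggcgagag
RPL4, chr15:66504841-66504870, minus strand: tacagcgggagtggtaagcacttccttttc
RPL17, chr18:49492451-49492480, minus strand: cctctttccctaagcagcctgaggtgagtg
The tract of RPL39 ran over 22 bases, past the edge of its window, and that of RPLP2 over 17. The tracts of RPL22, with 11 bases, and RPL36AL, with 8, show that genes on either side of a ratio of 1 carried one. The windows of RPL4 and RPL17 hold a pyrimidine run that begins with C outside the searched range. The missing match thus does not show that these genes lack a TOP tract. A match describes the letters near an annotated start and not which start was used in these cells.

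The 4 libraries held 5771795 to 12287451 assigned fragments, so that a count of 3 corresponded to 0.244 to 0.520 counts per 1000000 (CPM). Mitochondrial chromosome transcripts were 9.04 and 10.4% of unlabelled and 27.0 and 30.9% of labelled fragments. The RN7SL genes, which encode the RNA of the signal recognition particle, were 1.64 and 2.89% against 1.05 and 1.08%, highest in unlabelled replicate 2. The median absolute log2 difference over all genes was 0.257 between the unlabelled libraries and 0.141 between the labelled ones. From unlabelled replicate 1 to labelled replicates 1 and 2 it was 0.184 and 0.202, and from unlabelled replicate 2 it was 0.271 and 0.294. Unlabelled replicate 1 was thus closer to both labelled libraries than to unlabelled replicate 2. Results are therefore also given without each unlabelled library. LIN28B, listed as a marker of this line, stood at 120 to 142 CPM of assigned fragments. PAX2 and NEFM, of the same list, stood at 10.2 to 14.9 and 0.490 to 2.12 CPM. HBB and CD3E of blood were at 0 and PTPRC at 1 count at most. Of the fibroblast and endothelial markers, COL1A1 stood at 13.5 to 21.3 CPM, COL3A1 at 0.320 to 1.47, PECAM1 at 0 to 0.122 and VWF at 0 to 0.520.

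As a sum, large subunit mRNAs took a smaller share of the labelled libraries. Unlabelled replicate 1 had 3.06% of its fragments in these genes, with a 95% Wilson interval of 3.05 to 3.07%, and unlabelled replicate 2 had 2.72% (2.71 to 2.73%). For labelled replicates 1 and 2 the values were 1.96% (1.95 to 1.97%) and 1.88% (1.88 to 1.89%). The groups did not overlap, and both labelled libraries lay well under both unlabelled ones. The unlabelled mean was 2.89% ± 0.238 (SD, n = 2) and the labelled mean 1.92% ± 0.0523 (SD, n = 2), a ratio of 0.665, and the two-sided exact permutation test gave p = 0.333, the smallest that 2 against 2 libraries allow. The intervals cover counting error within 1 library only, and not the spread between libraries. No molecular identifiers were used to tell molecules from their copies, so the intervals may be too narrow even for counting error. A lower share is not by itself a lower amount in the cells, because the design text speaks of enriched material. In bulk RNA, fewer cells holding an mRNA and less of it per cell cannot be told apart either.

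The mitochondrial share moved with the groups, and it enters the denominator of that ratio. Of the fragments outside the mitochondrial chromosome, large subunit mRNAs took 3.36 and 3.04% in the unlabelled libraries and 2.68 and 2.73% in the labelled ones. The unlabelled mean was 3.20% ± 0.229 (SD, n = 2) and the labelled mean 2.703% ± 0.0318 (SD, n = 2), a ratio of 0.845, again with p = 0.333 in the exact permutation test. The groups were still apart, with a smaller distance, and the 2 labelled libraries were nearly alike.

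**Figure D1:**
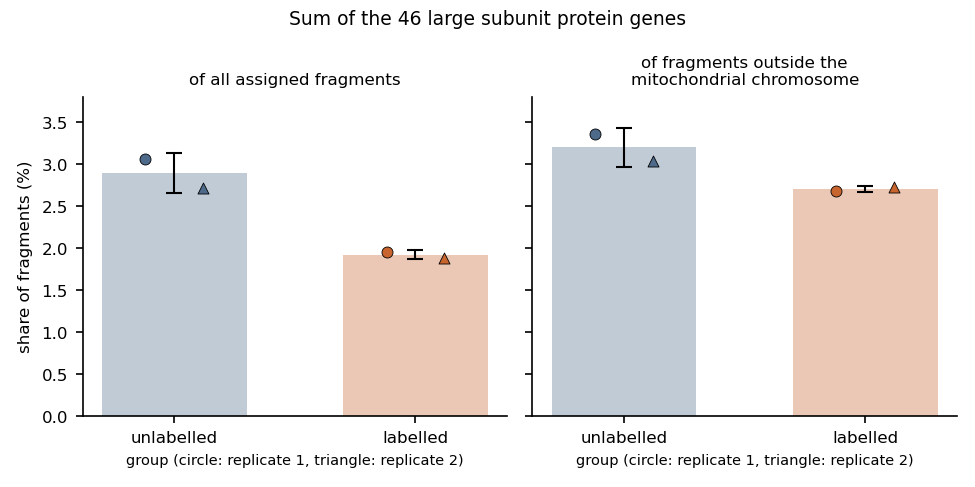
Share of the 46 large subunit protein genes in percent of all assigned fragments (left) and of fragments outside the mitochondrial chromosome (right). Bars are group means, error bars are SDs of 2 libraries, circles are replicate 1 and triangles replicate 2. The unlabelled mean of 2.89% stands above the labelled mean of 1.92% on the left, and 3.20% above 2.703% on the right.

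Gene by gene, most large subunit mRNAs had lower labelled values after scaling by TMM, a factor that sets the bulk of genes level between libraries, but none passed the test. The edgeR quasi-likelihood test over 18973 genes with Benjamini-Hochberg adjustment called 0 of the 46 at an adjusted p under 0.05, in either direction, where it called 0.0158% of all genes lower and 0.269% higher. The log2 fold change of labelled over unlabelled was negative for 37 genes and positive for 9, with a median of -0.24, quartiles of -0.40 and -0.09 and a range of -0.84 to 0.53. Over all genes tested the median was -0.01. The median standard error (SE) of the 46 was 0.16 and the SD of their fold changes 0.28. At an unadjusted p under 0.05, 15 were lower and 2 higher, beside 5.88 and 5.67% of all genes. For 31 genes both labelled libraries lay under both unlabelled ones, and for 4 they lay above, beside 22.4 and 22.2% of all genes. The 11 genes whose groups overlapped were RPL3, RPL4, RPL5, RPL6, RPL7, RPL8, RPL11, RPL14, RPL28, RPL30 and RPL36A.

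The 4 pairs of a labelled with an unlabelled library gave member medians of -0.36, -0.34, -0.16 and -0.12, the first 2 against unlabelled replicate 1 and the last 2 against unlabelled replicate 2. DESeq2, the tool in the submitters' processing notes, called 4 of the 46 lower (RPL37A, RPL38, RPL39 and RPLP1), beside 0.0638% of the genes it adjusted. Leaving out an unlabelled library gave more calls, in a fit where the remaining one is assumed to vary like the labelled pair. Without unlabelled replicate 1, edgeR called 10 lower and 5 higher (7.37 and 11.6% of all genes), 29 fold changes were negative and the median was -0.09. Without unlabelled replicate 2 it called 26 lower and 1 higher (2.55 and 2.06% of all genes), 41 were negative and the median was -0.36. Scaling by library size alone put the median of all genes at -0.37 and that of the 46 at -0.60, and called 33 lower (14.1% of all genes). The distance between the medians of the 46 and of all genes was -0.23 under both scalings. With library size alone, RPL23 was the 1 gene of the 46 with a positive fold change. Other fits called 4 lower with genes of low count kept (0.300% of all genes), 2 with a replicate block (0.506%) and 1 with libraries thinned to the lowest total of assigned fragments (0.0234%).

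**Figure D2:**
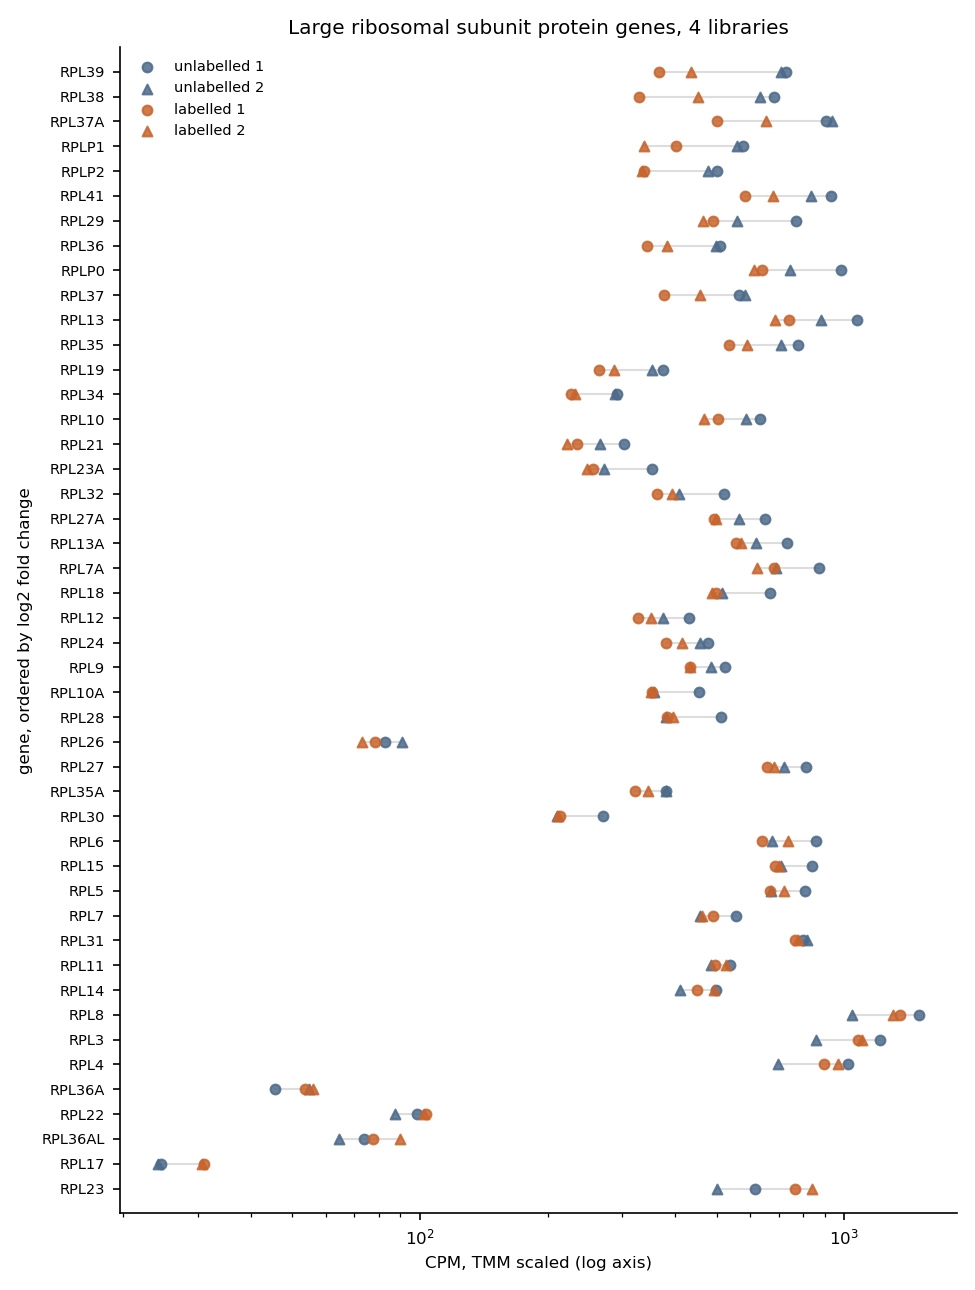
CPM scaled by TMM (log axis) of each of the 46 genes in each of the 4 libraries, genes ordered by log2 fold change from the lowest at the top. Blue marks are unlabelled and orange marks labelled libraries, circles replicate 1 and triangles replicate 2, and grey lines span the 4 values. Orange marks lie left of blue ones for 31 genes and right of them for 4, near the bottom.

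The P stalk carries the factors of elongation to the ribosome. RPLP1 (ENSG00000137818.12, chr15:69452814-69456205 on GRCh38), 1 of the 2 acidic proteins that form the stalk's dimers, stood at 578 and 557 CPM in the unlabelled and 401 and 337 CPM in the labelled libraries. RPLP2 (ENSG00000177600.9, chr11:809965-812880), its partner, stood at 500.5 and 476 against 337 and 334 CPM. Both genes were lower in both labelled libraries. The replicates lay close together in each group except the labelled one for RPLP1. RPLP1 had a log2 fold change of -0.62 ± 0.16 (SE) with an edgeR adjusted p of 0.206, and RPLP2 of -0.54 ± 0.15 with 0.237. RPLP0, which anchors the dimers, had 982 and 746 against 638 and 611 CPM, a log2 fold change of -0.47 ± 0.19 and an edgeR adjusted p of 0.381. Its unlabelled libraries were far apart, and with unlabelled replicate 1 left out the log2 fold change was -0.22. RPL12, at the base of the stalk, had 430.0 and 373 against 327 and 349.9 CPM, a log2 fold change of -0.25, or -0.11 with unlabelled replicate 1 left out. All 4 stalk and base genes were lower in labelled libraries with groups that did not overlap, beside 22.4% of all genes, and their median log2 fold change was -0.50.

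Of the proteins that line the tunnel for the growing peptide, the smallest had the lowest ratio of all 46. RPL39 (ENSG00000198918.8, chrX:119786504-119791630), a very small basic protein of the lower tunnel, stood at 728 and 709 CPM in the unlabelled and 365 and 435 CPM in the labelled libraries. The groups were far apart for their spread, at 718 ± 13.6 against 400.2 ± 49.1 CPM (SD, n = 2). Its log2 fold change of -0.84 ± 0.16 had an edgeR adjusted p of 0.0809, and DESeq2 gave 5.05e-05. RPL4, a long protein whose loop reaches the tunnel, had 1021 and 696 against 895 and 964 CPM, so that both labelled libraries lay between the unlabelled ones. Its log2 fold change was 0.11 ± 0.21, or 0.45 without unlabelled replicate 1 and -0.13 without unlabelled replicate 2. RPL17, whose loop faces RPL4 across the tunnel, had 24.6 and 24.1 against 31.0 and 30.7 CPM. It was higher in both labelled libraries by a log2 fold change of 0.34 ± 0.13 with 0.370 as its adjusted p in edgeR, and by -0.02 with library size alone.

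At the rim of the tunnel exit, where chaperones and targeting factors dock, all 6 listed genes had both labelled libraries under both unlabelled ones, beside 22.4% of all genes, with a median log2 fold change of -0.35. RPL38 (ENSG00000172809.13, chr17:74203582-74210655), a small protein on that side of the subunit, stood at 683 and 634 CPM unlabelled and 328 and 451 CPM labelled. Its labelled libraries differed from each other, and the higher one was still under both unlabelled libraries. The log2 fold change was -0.76 ± 0.18, with an edgeR adjusted p of 0.161 and a DESeq2 adjusted p of 0.0124. RPL35, which contacts the signal recognition particle, had 778 and 710.4 against 536 and 589.8 CPM, and RPL19 had 373 and 353 against 264 and 286 CPM. Both had a log2 fold change of -0.40, with edgeR adjusted p-values of 0.396 and 0.334. RPL23A, the main docking site at the exit, had 352 and 271 against 256 and 248 CPM (log2 fold change -0.31, or -0.08 without unlabelled replicate 1 and -0.48 without unlabelled replicate 2). RPL26 had 82.6 and 90.7 against 78.2 and 73.0 CPM and a log2 fold change of -0.20, or -0.12 without unlabelled replicate 2. RPL31 had 799 and 815 against 764 and 776 CPM, a log2 fold change of -0.07 ± 0.17. Within the rim the genes thus ran from RPL38 to RPL31, whose groups were separated by less than its SE.

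RPL10 and RPL24 are added to the pre-60S particle late, in the cytoplasm, and RPL41 sits in a bridge to the small subunit. RPL41 (ENSG00000229117.9, chr12:56116590-56117967), with the shortest coding sequence of the 46, stood at 933 and 836 CPM unlabelled and 582 and 678 CPM labelled. Labelled values were lower in both libraries, with a log2 fold change of -0.49 ± 0.18 and an edgeR adjusted p of 0.340. RPL10 had 633 and 585 against 503 and 468 CPM (log2 fold change -0.33 ± 0.16), and RPL24 had 479 and 458 against 379.8 and 415 CPM (-0.24 ± 0.15).

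Of 3 genes for proteins near the peptidyl transferase centre, the 2 with long coding sequences had groups that overlapped. RPL8 had the highest mean CPM of the 46, with 1499 and 1044 CPM unlabelled and 1352 and 1299.5 CPM labelled. RPL3, whose finger reaches the catalytic centre, had 1212 and 859 against 1077 and 1099.8 CPM. In both genes the labelled libraries fell between the 2 unlabelled ones, which were far apart. Their log2 fold changes were 0.06 ± 0.22 and 0.07 ± 0.21 by edgeR, with adjusted p-values of 0.942 and 0.925. They were -0.29 and -0.28 with library size alone, and -0.17 and -0.15 without unlabelled replicate 2. RPL29, a short protein of the same neighbourhood, had 769 and 559 against 489 and 465 CPM, a log2 fold change of -0.48 ± 0.18. Without unlabelled replicate 1 this was -0.20. RPL5 and RPL11, which enter the subunit with the 5S RNA and bind MDM2 when free, overlapped between groups. RPL5 had 808 and 672 against 668 and 722 CPM (log2 fold change -0.09 ± 0.17), and RPL11 had 538 and 484 against 496 and 525 CPM (-0.00 ± 0.16).

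RPL36A and RPL36AL encode nearly identical proteins from genes on different chromosomes. RPL36AL (ENSG00000165502.7, chr14:49618530-49620626) had 73.7 and 64.4 CPM unlabelled and 77.4 and 90.0 CPM labelled, and RPL36A had 45.5 and 54.8 against 53.5 and 56.2 CPM. RPL36AL was higher in both labelled libraries, while the groups of RPL36A overlapped. The log2 fold changes were 0.28 ± 0.13 (edgeR adjusted p = 0.456) and 0.13 ± 0.13 (0.726), and with library size alone they were -0.08 and -0.23. For RPL36A the value was 0.03 without unlabelled replicate 1 and 0.27 without unlabelled replicate 2, and for RPL36AL it was 0.18 without labelled replicate 2. RPL22, an RNA-binding protein at the outside of the subunit, had 98.6 and 87.5 against 103 and 103 CPM, a log2 fold change of 0.14 ± 0.13, or -0.21 with library size alone. It was 0.26 without unlabelled replicate 1 and 0.07 without unlabelled replicate 2.

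RPL23 had the highest log2 fold change of the 46 genes. This protein of the subunit interface is the docking site of the anti-association factor EIF6. RPL23 (ENSG00000125691.14, chr17:38847860-38853764) stood at 615 and 500.5 CPM in the unlabelled and 766 and 839.7 CPM in the labelled libraries. Both labelled libraries were higher, at 803 ± 52.4 against 558 ± 80.7 CPM (SD, n = 2). The log2 fold change was 0.53 ± 0.18 with an edgeR adjusted p of 0.313. Scaled by library size alone it was 0.17. It was 0.71 without unlabelled replicate 1 (edgeR adjusted p = 3.08e-06) and 0.39 without unlabelled replicate 2 (0.0451).

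Other genes among the 8 with the smallest p-values were RPL37A, RPL36 and RPL37. RPL37A (ENSG00000197756.10, chr2:216498825-216579180), a zinc-binding protein, had 905 and 933 CPM unlabelled and 502 and 653 CPM labelled. Its log2 fold change was -0.67 ± 0.18, with an edgeR adjusted p of 0.245 and a DESeq2 adjusted p of 0.0249. RPL37, also zinc-binding, had 566 and 584 against 375 and 458 CPM (log2 fold change -0.47 ± 0.16, adjusted p in edgeR 0.330). RPL36 had 509.6 and 499 against 343 and 383 CPM (-0.47 ± 0.15, edgeR adjusted p = 0.306). In these 3 genes the unlabelled replicates were nearly equal, and the lower values were in both labelled libraries. RPL13, among the 5 highest in CPM, had 1071 and 882 against 739.5 and 686 CPM, a log2 fold change of -0.45 ± 0.18, or -0.28 without unlabelled replicate 1. RPL10A, RPL14 and RPL15, at the ends of the range of deposited gene length, had log2 fold changes of -0.21, 0.05 and -0.16. The 14 genes not described singly had log2 fold changes between -0.34, for RPL34, and -0.09, for RPL7.

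Levels can be set against each other only per length. Mean CPM was divided by the length in kb of the shortest complete coding transcript of each gene in GENCODE 29. The highest were RPL41 at 1615, RPL35 at 1436, RPL27 at 1423, RPL39 at 1394 and RPL8 at 1346 CPM per kb. The lowest were RPL17 at 41.3 and RPL22 at 47.2 CPM per kb, with RPL36AL at 102, RPL36A at 122 and RPL26 at 154. The order among the first 5 rests on differences smaller than those between libraries, since RPL41 itself ran from 1242 to 1988 CPM per kb. For RPL37, RPL27A and RPL37A the annotated transcript is 7686, 4916 and 3647 bases long, far beyond the coding part, so their values per kb are low by construction.

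The fold change was then set against length and abundance across the 46 genes. The coefficients describe points that share libraries, scaling and control values. Against the deposited gene length, the summed exons of a gene, Pearson's r was 0.09 and Spearman's rho 0.22 (n = 46, both quantities on log2 scales). Against transcript length they were 0.04 and 0.18. Against coding length they were 0.41 and 0.38. The 15 genes with the shortest coding sequences (75 to 375 bases) had a median log2 fold change of -0.47, the 15 in the middle (384 to 564 bases) of -0.24 and the 16 longest (576 to 1281 bases) of -0.18. Without the small RPL38, RPL39 and RPL41, r was 0.23 and rho 0.24 (n = 43). Other protein-coding genes within the same 3 length limits had medians of -0.04, 0.02 and 0.04 (569, 907 and 4472 genes), and r over these 5948 genes was 0.09. Small subunit protein genes are included in them.

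Against mean CPM, r was -0.34 and rho -0.10, and r was -0.16 without unlabelled replicate 1 and -0.49 without unlabelled replicate 2. The 4 genes under 100 CPM with positive fold changes under TMM (RPL17, RPL36A, RPL36AL and RPL22, all negative with library size alone) lay at the low end. The medians were -0.20, -0.31 and -0.17 in the 16 lowest, 14 middle and 16 highest genes by mean CPM. Among the genes with under 20% of exon bases shared with another gene (n = 42), r with mean CPM was -0.13 and r with coding length 0.47. The GC content of the transcript gave r of -0.23 and rho of -0.28. Its number of uridines, the base that s4U replaces, gave r of 0.08 and rho of 0.27. Uridine numbers and transcript lengths include the long annotated transcripts of RPL37, RPL27A and RPL37A, which reach far beyond the coding part. The median log2 fold change was -0.29 for the 33 genes with a tract as defined at a RefSeq start. It was -0.16 for the 6 listed without a match, RPL4 and RPL17 among them.

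**Figure D3:**
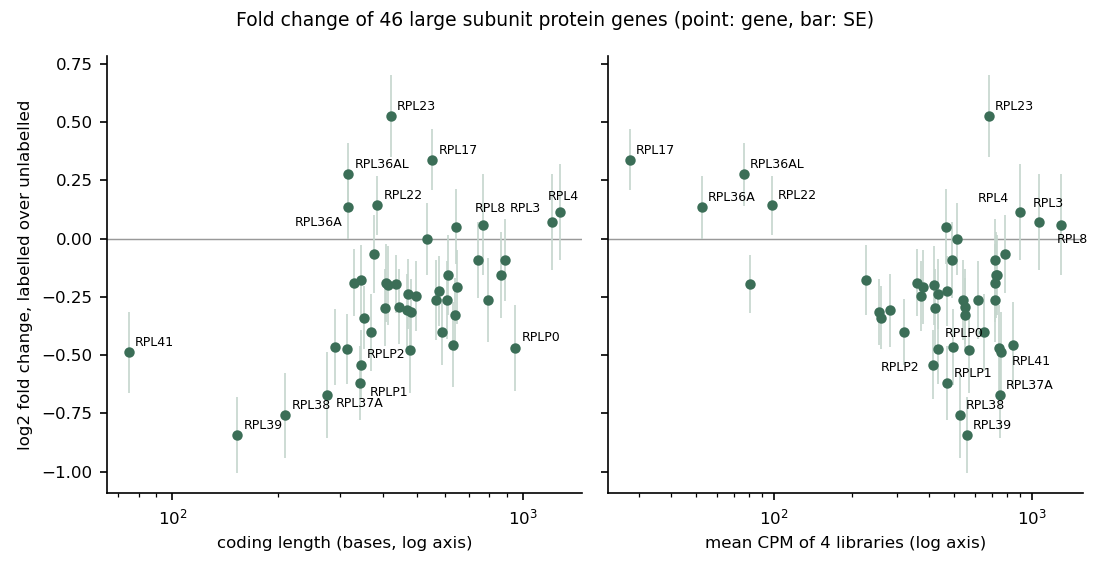
Log2 fold change, labelled over unlabelled, of the 46 genes against coding length in bases (left) and mean CPM of the 4 libraries (right), both on log axes. Points are genes and bars are SEs. RPL39 at -0.84 and RPL38 at -0.76 lie at the short end on the left, RPL4 and RPL3 at the long end lie near 0, and RPL23 at 0.53 is the highest. With library size alone all points but RPL23 are negative.

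Coding length was also related to differences between replicates of the same group. Unlabelled replicate 2 was lower than unlabelled replicate 1 in 41 of the 46 genes, with a median log2 ratio of -0.19. That ratio had r of -0.55 and rho of -0.62 with coding length, with medians of -0.04, -0.20 and -0.28 from the 15 shortest to the 16 longest. RPL4, RPL3 and RPL8, all long, were among the genes with the lowest ratios, while RPL37A, RPL39 and RPLP1 differed little. Between the labelled libraries, replicate 2 was lower in 18 genes, the median log2 ratio was 0.04, and r with coding length was -0.45. For each pair of a labelled with an unlabelled library, r with coding length was 0.35 and 0.15 against unlabelled replicate 1 and 0.60 and 0.45 against unlabelled replicate 2. In 81 other protein-coding genes within the coding length limits of the 46 and with a mean CPM of at least their lower quartile, 372, r between the unlabelled replicates was -0.31 and that of the fold change 0.11. Small subunit protein genes such as RPS19 and RPSA were among these 81, so they are not a set apart from ribosomal proteins. The relation of coding length to the fold change was thus of the same order as its relation to the difference between replicates, and its source was not tested.

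**Figure D4:**
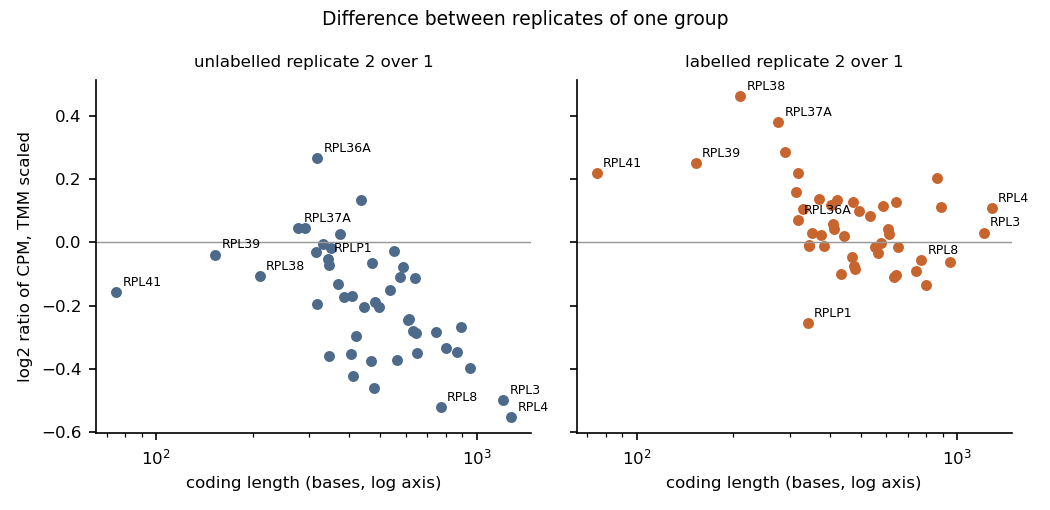
Log2 ratio of TMM-scaled CPM between the replicates of 1 group, replicate 2 over replicate 1, against coding length in bases (log axis), for the unlabelled (left) and labelled (right) libraries. Points are genes. On the left the points descend from near 0 for short genes to about the level of RPL4 and RPL3 for the longest. On the right RPL38 and RPL37A, both short, are the highest.

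Counting without strand and without multi-mapping reads touches some of these genes. RPL10 shares 53.4% of its exon bases with other annotated genes, mostly DNASE1L1 on the opposite strand, RPL30 shares 40.8%, mostly with RPL30-AS1, RPL17 shares 35.5%, mostly with the readthrough gene RPL17-C18orf32, and RPL36A shares 22.4%. Fragments in such overlaps are not assigned, so the levels of these 4 are uncertain. The 42 other genes had a median log2 fold change of -0.26. Pseudogenes named after the 46 genes took 0.0985 and 0.114% of fragments unlabelled and 0.0693 and 0.0608% labelled. For most genes their counts were a small part of the parent's count. In unlabelled replicate 1 and labelled replicate 1 they came to 190.2 and 151% of the count of RPL36A and to 98.6 and 65.0% of that of RPL17, so fragments of these 2 genes may be split between copies. Fragments that mapped to both a gene and a copy are in neither count, so pseudogene counts do not measure what was lost. Multi-mapping alignment records over each whole library numbered 22599823 and 7158307 unlabelled and 6059635 and 15992331 labelled. Assigned fragments numbered 8172347 and 5771795 against 9380258 and 12287451. The part of the multi-mapping records in these genes is not known. A small nucleolar RNA gene lies inside 18 of the 46, RPL23, RPL39 and RPL17 among them. The median log2 fold change was -0.28 for these 18 and -0.20 for the 28 without one.

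Related gene lists were set beside the 46, each with counts and a median only, under TMM scaling. Library size alone shifted all lists down with the median of all genes. Small subunit proteins were alike in direction: 31 of 32 had negative log2 fold changes, with a median of -0.32, 0 were called by edgeR, and 13 were lower at an unadjusted p under 0.05, beside 5.88% of all genes. In 24 of the 32 the labelled libraries lay under both unlabelled ones, beside 22.4% of all genes. DESeq2 called 3 of the 32, beside 76 of all 18973 genes tested. RPS29, with 279 and 373 against 167 and 215 CPM, RPS21 and RPS19 had the smallest p, with log2 fold changes of -0.77, -0.74 and -0.68. Their share of fragments outside the mitochondrial chromosome was 2.66 and 2.36% unlabelled and 2.06 and 2.01% labelled. The list's median was -0.18 without unlabelled replicate 1, with 24 of 32 negative, -0.42 without unlabelled replicate 2, with 31 negative, and -0.67 with library size alone.

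The 5 tested paralogues of large subunit genes had a median of 0.06, with 2 negative, which was 0.18 without unlabelled replicate 1, -0.01 without unlabelled replicate 2 and -0.30 with library size alone. RPL39L, the paralogue of RPL39, had 10.7 and 9.51 CPM unlabelled and 10.7 and 10.4 CPM labelled, a log2 fold change of 0.06 ± 0.20. The fold changes of RPL7L1, RPL26L1, RPL22L1 and RPL3L were 0.18, -0.15, -0.16 and 0.07. Factors that assemble and export the large subunit had 34 of 44 positive fold changes and a median of 0.10 under TMM, against -0.26 with 4 positive under library size alone, above the median of all genes in both cases. The median was 0.20 without unlabelled replicate 1 and 0.11 without unlabelled replicate 2. In 20 of the 44 both labelled libraries were higher, beside 22.2% of all genes, 7 were higher at an unadjusted p under 0.05, beside 5.67%, and edgeR called 0. RSL24D1, a placeholder for RPL24 during assembly, had 76.2 and 77.6 CPM unlabelled and 105 and 102 CPM labelled, a log2 fold change of 0.43 ± 0.12 with an edgeR adjusted p of 0.261. RPF1 and ZNF622, also assembly factors, had log2 fold changes of 0.38 and 0.44.

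Other RNAs known to carry a TOP tract had no common direction. Of 20 tested, 10 were negative and 10 positive, with a median log2 fold change of 0.01. The positive ones included the non-coding RNAs GAS5, at 0.17, and SNHG1, at 0.097. Of the 20, edgeR called 0 and DESeq2 called 1, beside 76 that DESeq2 called among all 18973 genes tested. Without unlabelled replicate 1 and without unlabelled replicate 2 the median was 0.09 and -0.13. EEF1D, a subunit of the elongation factor EEF1, had a log2 fold change of -0.49, EIF3L of -0.39 and HNRNPA1, a splicing factor, of 0.65. The 9 regulators of TOP mRNA translation had a median of 0.03 (0.15 and -0.00 without unlabelled replicate 1 and 2), with EIF4EBP2 at 0.39, TSC2 at -0.21 and LARP4 at 0.12. The 48 large subunit proteins of the mitochondrial ribosome, whose mRNAs are nuclear, had a median of 0.06 with 30 positive, which was 0.15 without unlabelled replicate 1, -0.02 without unlabelled replicate 2 and -0.29 with library size alone. Among them MRPL52 had 45.9 and 45.0 CPM unlabelled and 30.3 and 28.8 CPM labelled, with -0.62 ± 0.12 on the log2 scale (adjusted p in edgeR 0.0862), while MRPL9 and MRPL55 had 0.76 and -0.42. edgeR called 0 genes in these 3 lists.

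**Figure D5:**
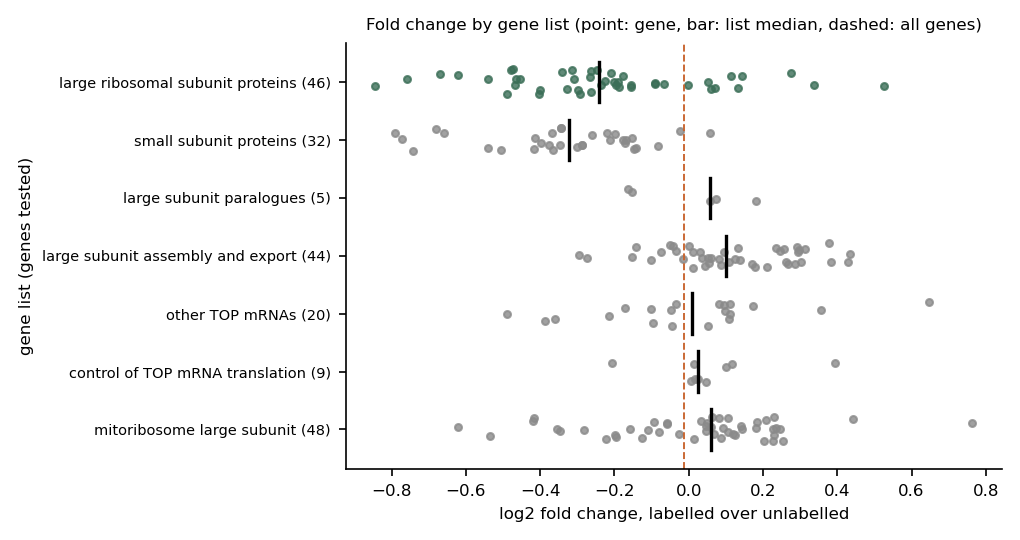
Log2 fold change, labelled over unlabelled, with TMM scaling, of each tested gene in 7 lists, with the number tested in parentheses. Points are genes, spread vertically for legibility, black bars are list medians and the dashed line is the median of all genes. The medians of the large and small subunit proteins, -0.24 and -0.32, lie left of the dashed line at -0.01, and that of assembly and export factors, 0.10 under this scaling, lies right of it.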

How the data were processed

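Deposited values are raw counts of fragments, 1 per gene and library. They come from featureCounts 1.6.4 with GENCODE 44, per the file headers: exons were summed by gene, both ends of a pair had to map, and neither strand nor multi-mapping reads were used. The submitters' processing notes name STAR 2.7.9a, the build GRCh38 and DESeq2 1.42.0. All 62700 identifiers were paired with symbols. Counts were tested with edgeR 4.0.16 (glmQLFit, glmQLFTest) in R 4.3.3 after filterByExpr and TMM, with Benjamini-Hochberg adjustment over 18973 genes at a threshold of 0.05. The 4 libraries entered 1 fit with no block. CPM are TMM-scaled unless said otherwise. The test of shares was the exact permutation test, two-sided, in Python 3.11.15. Gene coordinates follow the deposited table (GRCh38). Transcript and coding lengths came from GENCODE 29 and start windows from RefSeq on GRCh38.p14. The genes described singly were the 8 with the smallest p, the extremes of fold change, CPM and deposited length, and genes listed by role. One gene of a comparison list is not reported here, and RPL10L, EEF1G and MRPL53, at 3 counts or fewer per library, were not tested. Members and lists were chosen with earlier results of these data known.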

Additional observations from a re-analysis of the deposited data

How the results depend on the processing

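The edgeR fit of the report called 0 of the 46 genes lower and 0 higher. The count called lower was 33 with library size alone, 4 without the low-count filter, 2 with the replicate block, 1 after thinning and 4 with DESeq2. Leaving out 1 library gave 0 to 26 lower and 0 to 5 higher, the largest counts coming without an unlabelled library. The median log2 fold change of -0.24 was -0.60 with library size alone and -0.36 to -0.092 with 1 library left out, lowest without unlabelled replicate 2, and -0.15 with the transcript length trend removed. Pearson's r of 0.09 with deposited length was 0.22 as Spearman's rho, 0.040 with transcript length, 0.41 with coding length and 0.070 to 0.11 with 1 library left out. The last 2 lengths were chosen after seeing the data. The r of -0.34 with mean CPM was -0.10 as Spearman's rho and -0.49 to -0.16 with 1 library left out. The causes were not tested.

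Log2 fold changes turned sign for 16 of the 46 genes, 12 of them among the 32 described singly. The other 4 did so without unlabelled replicate 1, at 0.06 for RPL6, 0.09 for RPL7, 0.06 for RPL28 and 0.05 for RPL30. With library size alone they were -0.28 for RPL3, -0.24 for RPL4, -0.29 for RPL8, -0.30 for RPL14, -0.016 for RPL17, -0.21 for RPL22, -0.23 for RPL36A and -0.081 for RPL36AL. With 1 library left out, the lowest value came without unlabelled replicate 2 and the highest without unlabelled replicate 1: -0.15 to 0.37 for RPL3, -0.13 to 0.45 for RPL4, -0.21 to 0.079 for RPL5, -0.17 to 0.37 for RPL8, -0.37 to 0.0082 for RPL10A, -0.070 to 0.11 for RPL11, -0.080 to 0.23 for RPL14 and -0.27 to 0.0023 for RPL15. RPL11, at -0.0017, was 0.00099 with mitochondrial genes left out, 0.027 without the filter, 0.00041 with a CPM filter, 0.027 with the transcript length trend removed and 0.026 with DESeq2. Of the other single-gene values, 330 kept their side of 0 and of the threshold, and 63 passed it in the same direction.

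The labels do not say whether libraries with the same replicate number were paired. Deviations of same-numbered libraries correlated at -0.0698 over all genes, which cannot settle it with 2 libraries a group. The replicate block called RPL38 and RPL39. The relation to RefSeq protein length was not run. Of the 46 genes, RPL17 and RPL36A had the lowest CPM, at 24.1 to 31.0 and 45.5 to 56.2. Their SEs of 0.13 lay below the median SE of 0.16.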
